A study of Mus musculus with 6 samples.

Results

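The 10 genes described here were chosen as isoforms of spermatocytes and spermatids that stand beside enzymes, chaperones and RNA-binding proteins used by most cells. They were taken by symbol from the deposited table of 22219 genes, and 10 of 10 were found. Gapdhs, Ldhc, Pgk2 and Pdha2 encode enzymes of glycolysis and of the step from pyruvate to the citric acid cycle. Hspa2, Hspa4l and Hspa1l encode cytosolic chaperones of the HSP70 and HSP110 families, Clgn and Calr3 encode lectin chaperones of the endoplasmic reticulum, and Ybx2 encodes a Y-box protein that binds mRNA and DNA. Whole testes of mice on day 10 were compared: 3 libraries labelled cKO, with Eif5 deleted in the germ line, and 3 labelled Control. According to the series description the knockout came from Eif5 floxed mice and a Stra8-Cre driver, which acts in germ cells as they leave the undifferentiated state, so Eif5 is kept in the somatic cells of the sampled organ. The alleles of the Control mice and the strain are not given in the labels, and whether replicate libraries stem from different animals is not said. Eif5 had 8548, 8982 and 9574 normalised reads in cKO libraries 1 to 3, against 11964, 10551 and 11187 in Control libraries 1 to 3, a log2 fold change of -0.31 (SE 0.0947, limma adjusted p = 0.024).

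The first wave of spermatogenesis in the mouse is synchronous. Around this age the most advanced germ cells are in early meiotic prophase, and pachytene spermatocytes and spermatids appear later. X-linked genes are silenced during meiosis in males, and Pgk2 and Pdha2 are autosomal copies, made by retroposition, of the X-linked Pgk1 and Pdha1. Sperm rely on glycolysis in the tail, for which GAPDHS and LDHC are the dedicated enzymes, while HSPA2 serves in synaptonemal complex breakdown and CLGN and CALR3 in the folding of sperm surface proteins. In the GENCODE M21 annotation Pgk2 and Pdha2 have 1 exon each, and so does the longest transcript of Hspa2, whereas Gapdhs has 11, Ldhc 8, Hspa4l 19, Hspa1l 2, Clgn 15, Calr3 9 and Ybx2 9 exons in the longest transcript.

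Values below are normalised reads, that is, recovered whole reads divided by 1 size factor per library. Of the 10 genes 9 passed the filter on low counts and were tested, and 5 of these 9 were lower in cKO testes and 0 higher (limma, adjusted p under 0.05); edgeR and DESeq2 gave the same counts, and 0 were higher at an unadjusted p under 0.05 in limma. Among all 17570 genes tested, 20.0% were called, 10.4% as lower and 9.63% as higher. The median log2 fold change of the 9 genes was -0.41, against 0.01 for all genes tested. In 5 of the 9 genes all cKO libraries lay below all Control libraries and in 0 they lay above, and the same was true of 18.4% and 18.3% of all genes tested. In whole testes, fewer cells of a type and less RNA per cell cannot be told apart. Which cells the reads came from was not measured, and those of Hspa4l or Hspa2 may be partly somatic.

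The germ cell enzymes of glycolysis were scarce. Gapdhs, the sperm form of glyceraldehyde 3-phosphate dehydrogenase, had 28.1, 13.7 and 29.1 normalised reads in cKO libraries 1 to 3, against 53.3, 57.7 and 46.9 in Control libraries 1 to 3. Every cKO library was below every Control library, and the gene fell with a log2 fold change of -1.15 (SE 0.360, limma adjusted p = 0.0285), a fold of 0.450 with a 95% interval of 0.267 to 0.756. That call ended without cKO replicate 2 or Control replicate 1 or 2 (adjusted p = 0.136, 0.0770 and 0.0895 by limma). Ldhc, the lactate dehydrogenase subunit of spermatocytes and sperm, had 9.00, 41.8 and 26.7 normalised reads in cKO libraries, against 45.9, 32.7 and 34.9 in Control libraries. The cKO values spread over the whole range, with library 1 the lowest and library 2 among the Controls, and the gene did not pass (log2 fold change -0.72, SE 0.444, limma adjusted p = 0.274). Without cKO replicate 1 its log2 fold change was -0.15.

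Pgk2, the retrogene for phosphoglycerate kinase, had 6, 14 and 4 recovered reads in cKO libraries and 16, 6 and 0 in Control libraries, and it did not pass the filter. Its normalised reads were 6.75, 11.2 and 4.85 in cKO, against 11.8, 6.53 and 0 in Control, so the groups overlapped and no test was made. The count of 0 in Control library 3 allows up to 3.27 normalised reads if reads are independent; all 6 counts of Pgk2 were even, so this limit may be too low. Pdha2, the retrogene for the alpha subunit of pyruvate dehydrogenase, was the more abundant of the pair, with 128, 153 and 155 normalised reads in cKO libraries, against 157, 131 and 172 in Control libraries. The groups overlapped, and the difference of -0.07 on the log2 scale did not pass (SE 0.195, limma adjusted p = 0.838). The 95% interval of that fold ran from 0.719 to 1.26.

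**Figure D1:**
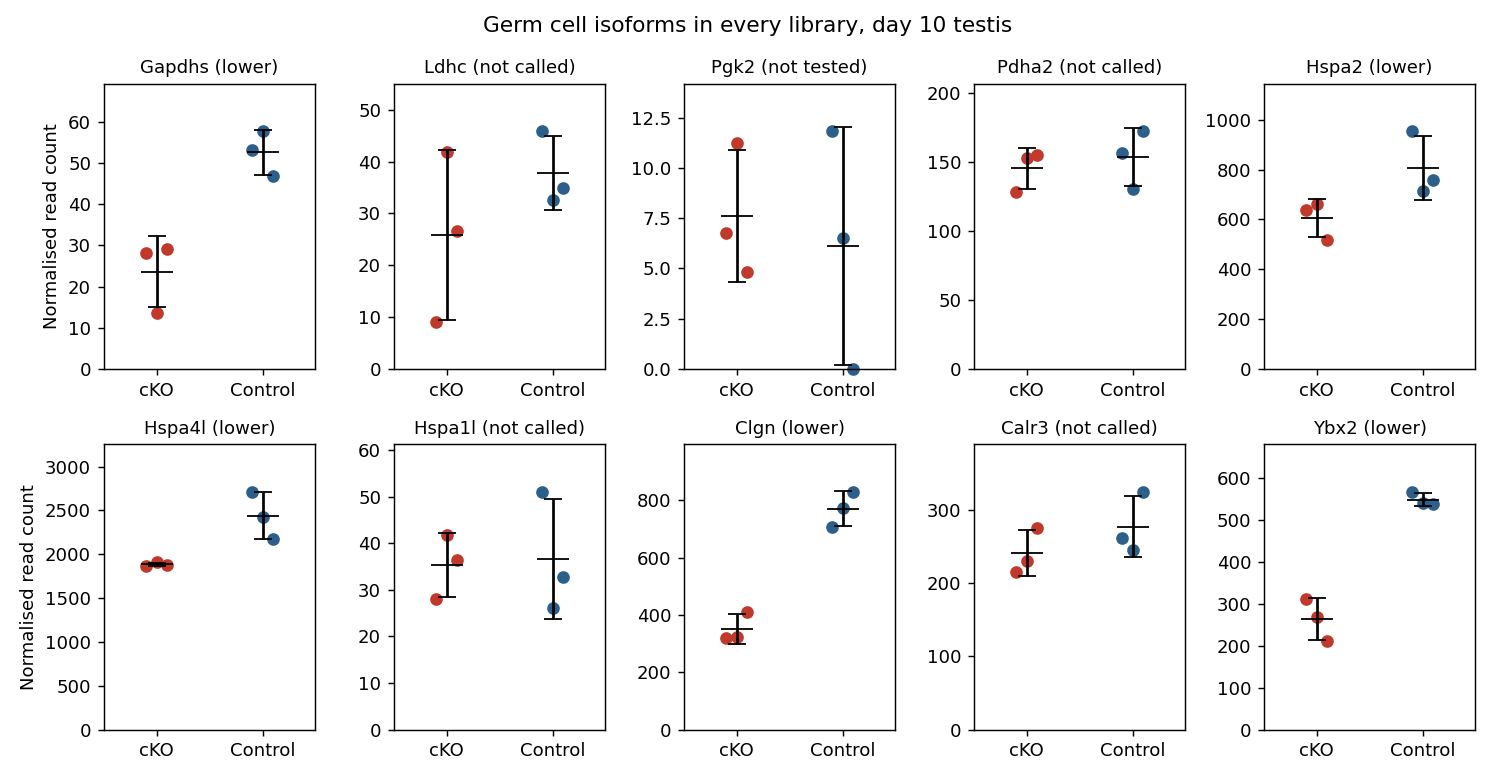
Normalised reads of the 10 genes in each library, 1 panel a gene, with cKO (red) left of Control (blue); each axis starts at 0, points are libraries, and the bar gives the mean and SD of 3 libraries. In Gapdhs, Hspa2, Hspa4l, Clgn and Ybx2 every cKO point lies below every Control point, and in the other panels the groups overlap.

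The cytosolic chaperones split into abundant and scarce genes. Hspa4l, a member of the HSP110 family of nucleotide exchange factors, was the one with the most reads, at 1871, 1908 and 1882 in cKO libraries against 2711, 2430 and 2174 in Control libraries. The groups did not overlap, and the gene fell by 0.36 on the log2 scale (log2 fold change -0.36, SE 0.0984, limma adjusted p = 0.0126). Its 3 cKO values lay close together (SD 19.0), whereas the Control values had an SD of 269. Hspa2, the HSP70 form of spermatocytes, had 639, 662 and 519 normalised reads in cKO libraries, against 954, 712 and 758 in Control libraries. The highest cKO library was just below the lowest Control library, and the gene fell with a log2 fold change of -0.41 (SE 0.133, limma adjusted p = 0.0348). The call of Hspa2 ended without cKO replicate 1 or 3 or Control replicate 1 (limma adjusted p = 0.0551, 0.174 and 0.154), and that of Hspa4l without cKO replicate 1 (limma adjusted p = 0.0503).

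Hspa1l, the HSP70 form known from spermatids, had 28.1, 41.8 and 36.3 normalised reads in cKO libraries, against 51.0, 26.1 and 32.7 in Control libraries. The groups overlapped throughout, and the difference of -0.01 on the log2 scale did not pass (SE 0.354, limma adjusted p = 0.988). Its 95% interval for the fold, 0.595 to 1.65, was wide. The identity of these reads is uncertain: 9.57% of the 50-base words of Hspa1l transcripts also occur in other GENCODE transcripts, those of Hspa1a and Hspa1b, and 1778 of its 2472 exon bases are overlapped by an antisense gene. Strand setting is not given in the sources used here. Of the other 9 genes, Hspa4l shared 0.356% of its words and 8 shared 0, and Gapdhs was overlapped over 157 of 1605 exon bases.

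Of the lectin chaperones Clgn fell and Calr3 did not pass. Clgn encodes calmegin, the testis relative of calnexin, and had 318, 324 and 410 normalised reads in cKO libraries, against 708, 773 and 829 in Control libraries. The groups were far apart, and Clgn fell to a fold of 0.455 (95% interval 0.375 to 0.551; log2 fold change -1.14, SE 0.134, limma adjusted p = 5.81e-06). Calr3, the testis relative of calreticulin, had 216, 230 and 276 normalised reads in cKO libraries, against 262, 246 and 325 in Control libraries. The ranges overlapped, and Calr3 did not pass (log2 fold change -0.20, SE 0.166, limma adjusted p = 0.432), with a 95% interval for the fold of 0.685 to 1.11. The intervals of Clgn and Calr3 did not overlap, while the difference between them was not tested as such.

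Ybx2 encodes the germ cell Y-box protein MSY2, which packages and stores mRNA in spermatocytes, spermatids and oocytes. It had 312, 270 and 211 normalised reads in cKO libraries, against 567, 541 and 539 in Control libraries. The Control libraries lay within a narrow range (SD 15.9) and all cKO libraries were well below it. Ybx2 fell to a fold of 0.477 (95% interval 0.384 to 0.593; log2 fold change -1.07, SE 0.151, limma adjusted p = 5.03e-05). Clgn and Ybx2 were called under all 17 other settings tried.

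Promoter sequences, from RefSeq on build GRCm38.p6, were at hand for 9 of the 10 genes, in 13 windows of 250 bases before to 50 bases after a transcript start; Clgn is named only. The 4 that follow, 5′ to 3′, set side by side 3 genes that fell and the single-exon Pgk2, which was near 0. Capitals mark letters of any of 4 motifs searched on both strands: the cAMP response element TGACGTCA, the STRA8 motif CNCCTCAG, a MYB motif CAACTG and the CCAAT box.
Gapdhs, chr7:30743632-30743931, minus strand: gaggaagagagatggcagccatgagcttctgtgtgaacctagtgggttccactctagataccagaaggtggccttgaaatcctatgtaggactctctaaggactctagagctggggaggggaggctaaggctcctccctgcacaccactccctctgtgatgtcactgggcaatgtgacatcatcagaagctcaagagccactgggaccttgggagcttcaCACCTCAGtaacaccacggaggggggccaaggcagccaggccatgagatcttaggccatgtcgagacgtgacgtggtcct
Hspa2, chr12:76404120-76404419, plus strand: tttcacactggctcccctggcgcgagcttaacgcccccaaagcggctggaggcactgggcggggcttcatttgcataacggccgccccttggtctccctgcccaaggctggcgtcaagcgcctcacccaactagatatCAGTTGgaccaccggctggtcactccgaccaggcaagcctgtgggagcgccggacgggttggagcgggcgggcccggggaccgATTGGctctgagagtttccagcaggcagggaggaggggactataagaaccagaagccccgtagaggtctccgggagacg
Ybx2, chr11:69935649-69935948, plus strand: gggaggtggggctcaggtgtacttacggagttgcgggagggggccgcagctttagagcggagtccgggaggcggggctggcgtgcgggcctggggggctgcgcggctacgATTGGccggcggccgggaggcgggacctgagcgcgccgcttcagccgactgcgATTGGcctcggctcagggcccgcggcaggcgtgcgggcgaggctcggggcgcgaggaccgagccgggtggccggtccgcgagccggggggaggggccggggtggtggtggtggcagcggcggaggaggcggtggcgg
Pgk2, chr17:40208560-40208859, minus strand: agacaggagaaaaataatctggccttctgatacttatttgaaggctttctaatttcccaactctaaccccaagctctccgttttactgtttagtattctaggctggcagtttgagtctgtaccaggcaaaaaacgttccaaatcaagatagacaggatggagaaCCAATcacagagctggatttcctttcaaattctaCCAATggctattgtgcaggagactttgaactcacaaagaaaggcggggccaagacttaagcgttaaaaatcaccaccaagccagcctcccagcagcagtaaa
The capitals in the Gapdhs window are a STRA8 motif, which 3 of the 13 windows held, both windows of Gapdhs and a second window of Ybx2, against 7.94% of 32851 promoters. Both Gapdhs windows have nearly the same sequence around the motif, so they are not separate cases and nothing is read from that share. By gene, the motif was in Gapdhs and Ybx2 only, among the 9 genes with windows. The MYB motif was in 1 of the 13 windows, that of Hspa2, against 13.7% of all promoters, and the CCAAT box was in 6 of 13, against 37.4%. The full cAMP response element was in 0 of 13 windows and in 1.79% of all promoters. CpG dinucleotides were more frequent in the windows shown for Ybx2 (40) and Hspa2 (21) than in those for Gapdhs (4) and Pgk2 (4), with a median of 7 over all promoters. These are matches of letters and say nothing of binding.

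To set levels of different genes side by side, normalised reads were divided by the length of the annotated exons in kb. Hspa2 averaged 229 ± 29.1 reads per kb in cKO and 306 ± 48.6 in Control (SD, n = 3 each), Ybx2 146 ± 28.0 in cKO and 303 ± 8.76 in Control, and Hspa4l 196 ± 1.98 in cKO and 254 ± 27.9 in Control. Clgn averaged 87.1 ± 12.7 reads per kb in cKO and 191 ± 15.0 in Control, and Calr3 123 ± 16.0 in cKO and 141 ± 21.3 in Control. Below these came Pdha2, at 61.8 ± 6.30 reads per kb in cKO and 65.2 ± 8.94 in Control. In Control testes Hspa2 and Ybx2 did not differ beyond their spread, nor did Hspa4l from Hspa2, nor Gapdhs (32.8 ± 3.39 reads per kb) from Ldhc (27.6 ± 5.16). The lowest levels in Control were 14.8 ± 5.22 reads per kb for Hspa1l and 3.77 ± 3.65 for Pgk2. In cKO testes Gapdhs was at 14.7 ± 5.39, Ldhc at 18.8 ± 12.0, Hspa1l at 14.3 ± 2.78 and Pgk2 at 4.68 ± 2.02 reads per kb. Clgn was above Calr3 in Control testes and below it in cKO testes.

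Which of these were at background depends on where the limit is set. With the limit at the 90th percentile of 35 genes typical of other organs, 10 of which had no row here and counted as 0, 169 reads per kb in Control, 6 of the 10 were at background: Gapdhs, Ldhc, Pgk2, Pdha2, Hspa1l and Calr3. That limit was raised by list genes with clear reads in these testes, Tnni3 (6071 reads per kb), Slc17a7 (384), Ahsg (323) and Ins2 (208). Calr3 and Pdha2, which lay under it, were at percentiles 53.1 and 44.0 of 21532 genes by Control reads per kb. For them, being under that limit does not mean absence. A limit chosen after these values were seen, the highest of the genes that mark spermatids (Tnp2, 29.6 reads per kb), put 3 at background: Ldhc, Pgk2 and Hspa1l, with Gapdhs (32.8) just above it. The filter on low counts took out Pgk2 only. Pgk2 was thus at background under these 3 limits. Against the median of the genes of other organs (3.13 reads per kb), also chosen afterwards, 0 of the 10 were at or below the limit, Pgk2 lying just above it.

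**Figure D2:**
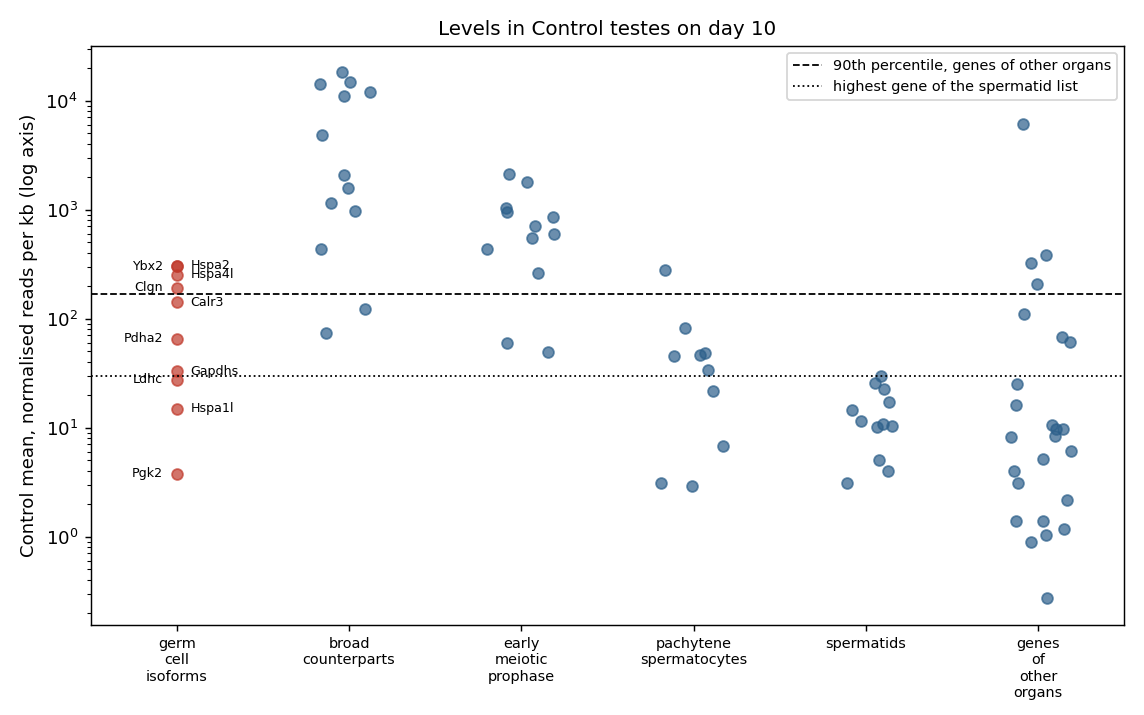
Mean of the 3 Control libraries in normalised reads per kb (log axis) for the 10 genes (red, named) and 5 comparison lists (blue), 1 point a gene; 10 of the 35 genes of other organs had no row here, count as 0 and are not drawn. Dashed and dotted lines are the limits of 169 and 29.6 reads per kb; Pgk2, Hspa1l and Ldhc lie under both, and Hspa2, Ybx2, Hspa4l and Clgn above both.

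Each gene was then set against the form that most cells use, as a percentage of reads per kb in the same library, which does not depend on the scaling of that library. Clgn amounted to 1.51%, 1.79% and 1.91% of Canx, the general calnexin gene, in cKO libraries, against 3.96%, 3.86% and 4.05% in Control libraries. Ybx2 amounted to 1.05%, 0.966% and 0.732% of Ybx1 in cKO libraries, against 2.47%, 1.91% and 1.85% in Control libraries. Gapdhs amounted to 0.116%, 0.0520% and 0.124% of Gapdh in cKO libraries, against 0.234%, 0.249% and 0.208% in Control libraries. The groups did not overlap in these 3 pairs, and the same held for Hspa2 against Hspa8 (means 1.98% in cKO and 2.79% in Control) and Hspa4l against Hspa4 (14.1% in cKO and 16.1% in Control).

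As differences of log2(value + 2) between the 2 genes, cKO minus Control, these 5 pairs came to -1.19 for Clgn, -1.18 for Ybx2, -1.26 for Gapdhs, -0.49 for Hspa2 and -0.19 for Hspa4l. The 2-sided exact permutation p was 0.1 for each, the smallest that 3 libraries against 3 allow, and 0.2 after adjustment over the 10 pairs. In the other 5 pairs the libraries overlapped: Ldhc against Ldha (-1.03, exact p = 0.2), Pdha2 against Pdha1 (-0.25, exact p = 0.3), Hspa1l against Hspa1a (-0.61, exact p = 0.2), Calr3 against Calr (-0.22, exact p = 0.3) and Pgk2 against Pgk1 (0.41, exact p = 0.9). With 1 library left out, Ldhc against Ldha ran from -0.44 (without cKO replicate 1) to -1.44 (without cKO replicate 2), and Calr3 against Calr from -0.07 (without cKO replicate 1) to -0.34 (without Control replicate 2). Pdha2 against Pdha1 ran from -0.17 (without Control replicate 3) to -0.39 (without Control replicate 2). Pdha2 averaged 12.6% of Pdha1 in cKO and 15.2% in Control, and Hspa1l 12.9% of Hspa1a in cKO and 19.7% in Control.

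Of 13 general forms 2 were higher in cKO and 0 lower, beside 9.63% called higher among all genes tested, so nothing is read from the count. Their median stood at 0.17 on the log2 scale. The median was -0.27, with 0 higher and 6 lower, when libraries were scaled to Sertoli cell genes. With that scaling 47.2% of all genes tested were lower, and the median of all genes was -0.43. The median of the general forms was 0.68, with 11 higher and 0 lower, when libraries were scaled to a list of germ cell genes. There 9337 of all 17570 genes tested were higher, and the median of all genes was 0.51. Nothing is read from the counts under these 2 scalings. Ldha, the lactate dehydrogenase subunit of most proliferating cells, averaged 2682 ± 125 normalised reads in cKO and 2161 ± 79.7 in Control (SD, n = 3 each) and rose by 0.31 on the log2 scale (limma adjusted p = 0.0207). The stress-inducible Hspa1a averaged 338 ± 75.9 in cKO and 221 ± 31.6 in Control and rose by 0.60 (limma adjusted p = 0.0225), although 60.3% of its 50-base words occur in other transcripts, those of Hspa1b and Hspa1l among them. Neither call held with library totals (limma adjusted p = 0.133 and 0.0521), with the Sertoli scaling (0.448 and 0.544), without cKO replicate 1 (0.0923 and 0.0658), without cKO replicate 2 (0.0957 and 0.147) or without Control replicate 3 (0.0516 and 0.0772), each pair given for Ldha and then Hspa1a. Words shared with other transcripts, pseudogenes among them, were also found for Pgk1 (53.9%), Hspa8 (38.6%), Gapdh (24.7%), Ldhb (21.0%), Ybx1 (15.4%) and Ldha (9.03%). The levels of these genes, and percentages taken against them, are uncertain where reads were split.

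**Figure D3:**
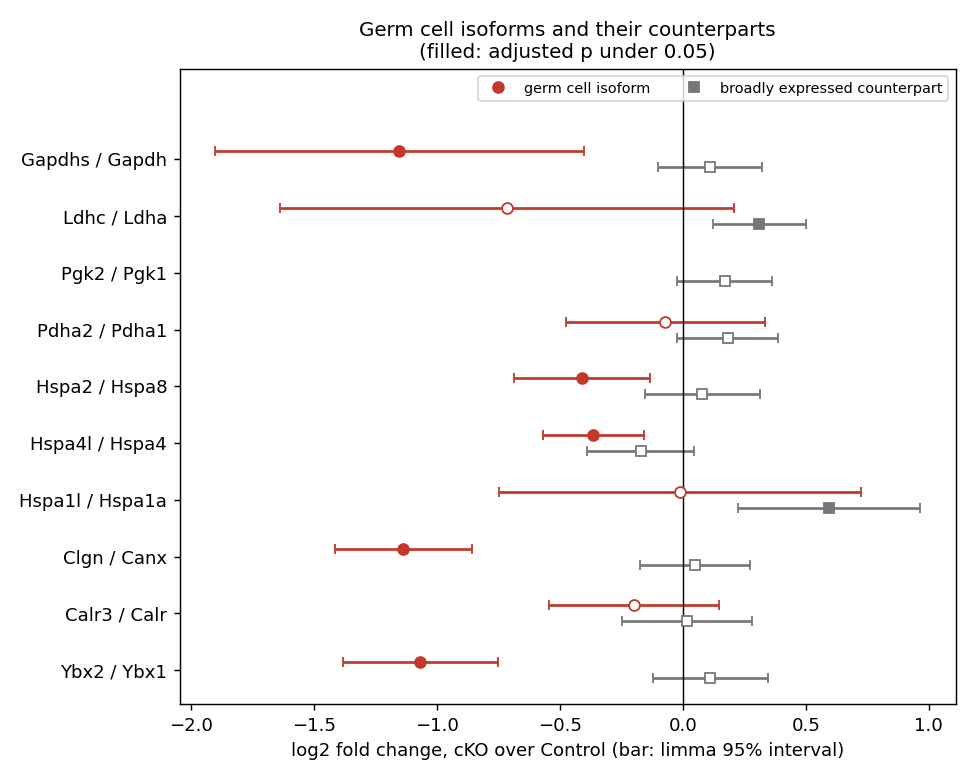
Log2 fold change, cKO over Control, of each gene (red circle) and its general counterpart (grey square), with limma 95% intervals; filled symbols passed an adjusted p under 0.05, and Pgk2 was not tested. Gapdhs, Clgn and Ybx2 lie between -1.15 and -1.07, and their counterparts Gapdh, Canx and Ybx1 between 0.05 and 0.11.

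Other germ cell genes with like roles were counted in the same fit, in which 10.4% of all genes tested were lower and 9.63% higher. Of 16 further energy isoforms of germ cells 8 were tested, 5 fell and 0 rose (median log2 fold change -0.51). Cox8c, a cytochrome c oxidase subunit of testis, averaged 42.5 ± 6.61 normalised reads in cKO and 109.7 ± 19.7 in Control (SD, n = 3 each; log2 fold change -1.32, limma adjusted p = 0.00146). The germ cell ADP/ATP carrier gene Slc25a31 (-0.68), the testis cytochrome c gene Cyct (-0.59) and Cox7b2 (-0.54) also fell. The call of Cox7b2 ended without cKO replicate 1 or 2 or Control replicate 1 (limma adjusted p = 0.0812, 0.0928 and 0.109) and that of Cyct without cKO replicate 1 (limma adjusted p = 0.0824), and the list had 2, 3 and 3 lower genes without cKO replicate 1, cKO replicate 2 or Control replicate 1. Of 9 further chaperone genes of germ cells 6 were tested and 1 fell, Fkbp6, which encodes a cochaperone needed in meiosis (-0.39; -0.32 and limma adjusted p = 0.0609 without cKO replicate 3). A count of 1 of 6 is too small to set against the share over all genes, so nothing is read from it.

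Of 12 further genes of germ cell RNA-binding proteins 9 were lower and 0 higher, and their median stood at -0.70 on the log2 scale. Cpeb1, which encodes a regulator of cytoplasmic polyadenylation, averaged 439 ± 13.1 normalised reads in cKO and 1208 ± 196 in Control (SD, n = 3 each; log2 fold change -1.44, limma adjusted p = 1.18e-07). Boll (-1.09) and Dazl (-0.80), both of the DAZ family, and Rbm46 (-0.94) were the next in size. Of 12 further intronless retrogenes 9 were tested and 3 fell: Pabpc6, a poly(A)-binding protein gene (-2.15), the splicing factor gene Rbmxl2 (-0.65) and Utp14b (-0.62). Cstf2t, Rpl10l and the other 4 did not pass. Pabpc6 is scarce and was not tested with a minimum mean of 50 normalised reads. With that minimum 5 retrogenes were tested and 2 were lower, beside 12.7% of all genes tested. The log2 fold change of Pabpc6 was -1.67 with a pseudocount of 8 and -2.34 with 0.5.

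Among 11 transcriptional regulators of later stages 3 fell and 0 rose. Those that fell were Taf7l, a germ cell TFIID subunit gene (-1.04), Rfx2 (-0.60) and Tcfl5 (-0.43). The call of Tcfl5 ended without cKO replicate 3 (-0.34, limma adjusted p = 0.0601). With the Sertoli scaling 8 regulators were lower and 0 higher, beside 8292 lower and 49 higher of all 17570 genes tested. With the germ cell scaling 1 regulator was lower and 4 were higher, beside 294 lower and 9337 higher of all genes tested. Both scalings moved most genes 1 way, so nothing is read from these counts. Mybl1, which encodes the A-MYB factor of pachytene genes, had 689, 853 and 931 normalised reads in cKO libraries, against 981, 758 and 842 in Control libraries, a log2 fold change of -0.07 (limma adjusted p = 0.772). Crem, the activator of spermatid genes, had a log2 fold change of 0.17 (limma adjusted p = 0.440). The count of lower regulators was 2 without cKO replicate 3 and 3 or 4 without any other library.

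Stage lists gave the setting for these values. All 12 genes of early meiotic prophase were lower in cKO (median -1.40 on the log2 scale). Of 8 tested genes of pachytene spermatocytes and 6 of spermatids limma, edgeR and DESeq2 called 0, with limma medians of -0.39 and -0.37. At an unadjusted p under 0.05 in limma 3 of the 8 pachytene genes were lower and 0 of the 6 spermatid genes passed. The spermatid median rested on single libraries, at -0.11 without cKO replicate 2, -0.73 without cKO replicate 3 and -0.89 without Control replicate 3, and it was -0.70 in edgeR and -0.65 in DESeq2. Of the 8 pachytene genes 1 was lower without cKO replicate 3, beside 7.27% of all genes tested. With the Sertoli scaling 5 were lower, beside 8292 of all 17570 genes tested. With the germ cell scaling 2 were higher, beside 9337 of all genes tested. Nothing is read from these 3 counts. A further list held 8 genes of sperm proteins, chosen for a link to CLGN or CALR3, and 4 were tested. Whether these 4 encode clients of either chaperone was not tested. Of the 4, limma, edgeR and DESeq2 called 0 (limma median -0.12), and 0 had an unadjusted p under 0.05 in limma. That median has no steady direction: it was 0.051 without cKO replicate 2, 0.061 without Control replicate 3, -0.24 without cKO replicate 3 and -0.26 without Control replicate 1. The adhesion genes Adam2 and Adam3, clients of CLGN, were below the filter, so the list gives no result for them.

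**Figure D4:**
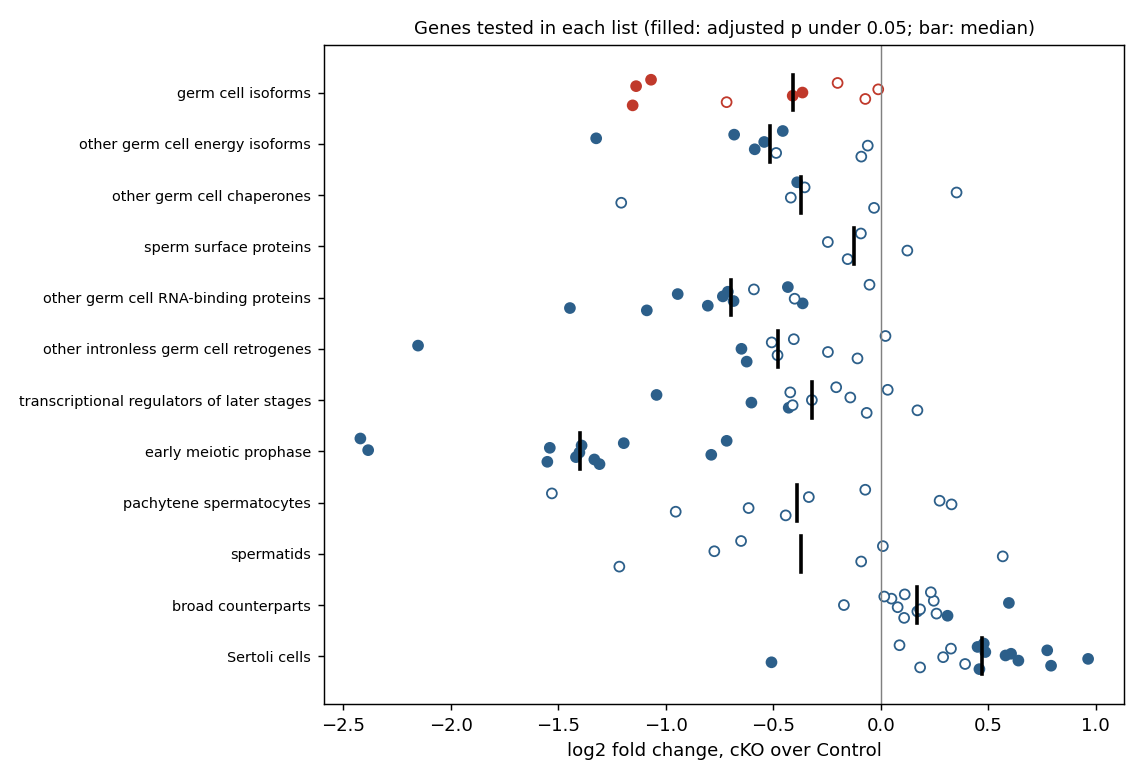
Log2 fold change, cKO over Control, of the tested genes of 12 lists, with the 10 germ cell isoforms (9 tested) in red, filled points for an adjusted p under 0.05 and a black bar at the median. The early meiotic prophase list has its median at -1.40, the germ cell isoforms at -0.41 and the Sertoli cell list at 0.47.

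Marker genes of other cell types were counted in the same fit, beside 10.4% lower and 9.63% higher among all genes tested. Of 16 Sertoli cell genes 10 were higher and 1 lower (median 0.47), and their summed reads ran from 604941 to 689522 in cKO libraries and from 391108 to 549490 in Control libraries, with 0 markers at 0 in any library. Leydig cell genes were higher in 6 of 7 and macrophage genes in 6 of 8. Lower were 2 of 6 peritubular myoid genes, 1 of 6 endothelial genes went each way (median -0.01) and 2 of 6 erythroid genes were higher. Counts of 1 or 2 of 6 are too small to set against the shares over all genes, so nothing is read from them. The Sertoli and Leydig counts of higher genes stayed within 9 to 11 and 5 to 7 when 1 library was left out. Counts for the other types changed with the library left out, while the macrophage median stayed between 0.26 and 0.46. Among all genes tested, those called higher also dropped, from 1692 to 916, 1005 and 938 without cKO replicate 1, 2 or 3. Macrophage genes called higher were 0 without cKO replicate 1 or 2, 1 without Control replicate 1 or 2, 4 without cKO replicate 3, 3 with the replicate block and 0 with library totals. Lower myoid genes were 0 without cKO replicate 1 or 2, 1 without cKO replicate 3 or Control replicate 2 or 3, and 3 without Control replicate 1. Higher erythroid genes were 0 without cKO replicate 1 or Control replicate 3, 1 without Control replicate 1 or 2, 3 without cKO replicate 2 and 4 without cKO replicate 3. The higher endothelial gene was not called without cKO replicate 1, nor the lower one without cKO replicate 2 or Control replicate 2. With the Sertoli scaling 0 Leydig cell, 0 macrophage and 0 erythroid genes were called higher, the macrophage median then being -0.07. Of all 17570 genes tested only 49 were higher with that scaling. The germ cell list held Ddx4, Dnd1, Tex15, Mael, Tdrd9, Sall4, Uchl1, Tuba3b and Rhox10. Of these 9 genes 5 were lower and 0 higher (median -0.38, range -1.21 to -0.12). Their summed reads ran from 29053 to 32525 in cKO libraries and from 40871 to 47106 in Control libraries. Whether each is expressed in all germ cells was not tested, and they did not move alike. The part of the cell types in the results was not tested beyond scaling each library to 1 of the lists.

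Scaled to the 9 genes of the germ cell list, all genes together had a median of 0.51 on the log2 scale. Still lower were 2 of the 9 tested isoforms, Clgn (-0.63, limma adjusted p = 0.00647) and Ybx2 (-0.56, limma adjusted p = 0.0120). Among all genes tested 1.67% were lower with this scaling. Gapdhs stood at -0.67 (limma adjusted p = 0.151), and Hspa2 (0.10) and Hspa4l (0.14) changed sign without passing. Scaled to Sertoli cell genes, all genes had a median of -0.43, and 47.2% of all genes tested were lower. Of the 9 tested isoforms 7 were lower there: the 5 already called, Ldhc (-1.12) and Calr3 (-0.63). With so high a share over all genes, nothing is read from the added calls of Ldhc and Calr3. Among the further lists, medians changed sign with the germ cell scaling for chaperones (0.12), pachytene genes (0.11), spermatid genes (0.04), sperm surface proteins (0.37) and regulators (0.19), and stayed below 0 for energy isoforms (-0.01), retrogenes (-0.01), RNA-binding proteins (-0.19) and early meiotic prophase (-0.89). The germ cell scaling left 1 energy isoform, 1 retrogene, 3 RNA-binding and 0 chaperone genes lower, with 1 energy isoform and 1 retrogene higher. Among all 17570 genes tested 294 were lower and 9337 higher with it. Fkbp6 (0.12) and Tcfl5 (0.08) changed sign with it, and Slc25a31, Cyct, Cox7b2, Dazl, Rbmxl2, Utp14b and Rfx2 were no longer called.

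**Figure D5:**
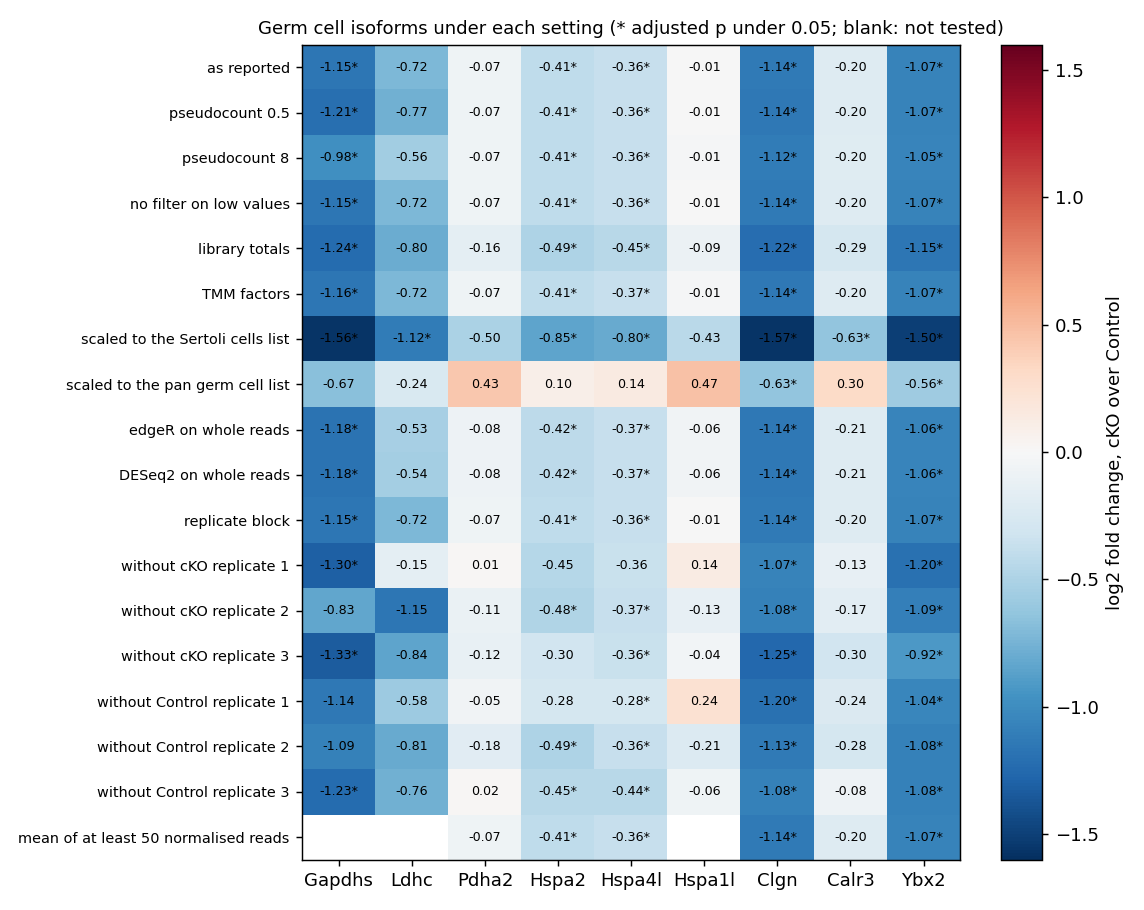
Log2 fold change, cKO over Control, of the 9 tested isoforms (columns) under each setting (rows), coloured from blue (lower in cKO) to red (higher), with a star for an adjusted p under 0.05. Clgn and Ybx2 carry a star in every row, and the row scaled to the germ cell list is the one with most positive values.

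The genes whose profile over the 6 libraries was most like the mean of the 9 tested isoforms were Acsl3, Ccdc152, Synj1, Thada and Zfp672, with Pearson r of 0.998, 0.995, 0.994, 0.994 and 0.993. Acsl3, an acyl-CoA synthetase gene, had 2599, 2759 and 2772 normalised reads in cKO libraries, against 3246, 2916 and 3146 in Control libraries. The libraries of these profiles fall into their 2 groups, and r is given as a description over 6 libraries, with no p.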

How the data were processed

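Total RNA of whole testes was measured in 6 libraries, 3 cKO and 3 Control, grouped by their titles. The submitters' processing notes name StringTie 1.3.1 and RSEM without a role; the aligner, build, annotation and strand handling were not given in the sources used. The authors deposited 1 table whose values are a normalised signal, each being whole reads divided by a size factor of its library (0.825 to 1.35): 100% of values came out whole (tolerance 1e-06), and median-of-ratios factors computed from those reads were equal to them. Recovered reads came to 32555443 to 48409550 per library, 20841 to 21582 genes were detected per library, and mitochondrial genes took 4.41% to 9.64% of reads. Precision is limited at low levels: among recovered counts of 1 to 20, 78.1% were even. No pair of libraries was a duplicate (chi-square per degree of freedom of 10.2 or more).

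Genes passing edgeR's filterByExpr on recovered reads (minimum count 10) were tested with limma 3.58.1 (R 4.3.3, intensity trend) on log2(value + 2), 2-sided, cKO against Control without covariate, with Benjamini-Hochberg adjustment over 17570 genes; 4649 were left out. Fold changes on this scale understate those of scarce genes. edgeR 4.0.16 and DESeq2 1.42.0 on recovered reads, other scalings, pseudocounts and filters, a replicate block and the removal of each library were alternatives. The limma script was tested on simulated counts. Genes of a pair were compared by an exact permutation test. Exon lengths and words shared between transcripts came from GENCODE M21, which held 96.9% of the symbols; 18 of 219 list entries were not matched to the table.

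The 10 genes, the lists and the rule for named genes (each isoform and its counterpart, and up to 4 called genes a list by size of change) were chosen with earlier results of these data known. Mybl1, Crem, Cstf2t, Rpl10l, Adam2 and Adam3 were named after their values were seen. P-values measure the spread between these libraries, which may be technical.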

Additional observations from a re-analysis of the deposited data

How the results depend on the processing

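Of 9 tested isoforms 5 were called lower; this count stayed at 5 with pseudocounts of 0.5 and 8, no filter, library totals, TMM factors, edgeR, DESeq2 and the replicate block, and was 4 of 6 with a minimum mean of 50, 7 with the Sertoli scaling, 2 with the germ cell scaling and 3 to 5 when 1 library was left out (3 without cKO replicate 1 or Control replicate 1). No isoform was called higher under any of the 17 settings. Numbers of all genes lower and higher were 1829 and 1692 (51.9% of calls lower), 2494 and 806 with library totals (75.6%), 8292 and 49 with the Sertoli scaling (99.4%), 294 and 9337 with the germ cell scaling (3.05%), and 1278 to 1792 and 916 to 1764 with 1 library left out. Called higher were 916, 1005 and 938 genes without cKO replicate 1, 2 or 3. The germ cell scaling reversed the sign of Pdha2 (0.43), Hspa2 (0.10), Hspa4l (0.14), Hspa1l (0.47) and Calr3 (0.30); its construction, scaling to a list that was itself lower, shifts all genes up. With 1 library left out Pdha2 ran from -0.18 to 0.016 (above 0 without cKO replicate 1 or Control replicate 3), Hspa1l from -0.21 to 0.24 (above 0 without cKO replicate 1 or Control replicate 1), and Pgk2 minus Pgk1 from -0.40 (without Control replicate 3) to 0.97 (without Control replicate 1). Their cause was not tested. The number of isoforms at background was 6, and 3, 1 and 0 under the spermatid, filter and median limits, because the limits differ in height.

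Same-numbered libraries did not deviate together (correlations of deviations -0.04, -0.002 and 0.06), so the numbers were not taken as pairs. With the replicate block 1771 genes were lower and 1535 higher, and 5 isoforms were lower. Reads of Pgk2, Gapdhs, Ldhc and Hspa1l, at most 72 per library, limit what can be seen for them.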

Other observations

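Recovered reads of Pgk2 and Ldhc were even in every library and those of Gapdhs in 2 of 6. Pgk2 had 6, 14 and 4 in cKO and 16, 6 and 0 in Control, and Ldhc had 8, 52 and 22 in cKO and 62, 30 and 32 in Control. Gapdhs had 25, 17 and 24 in cKO and 72, 53 and 43 in Control.

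Cox6b2, a sperm cytochrome c oxidase subunit gene chosen here after its values were seen, averaged 444 ± 16.6 normalised reads in cKO and 463 ± 25.9 in Control (SD, n = 3 each; log2 fold change -0.06, limma adjusted p = 0.788), whereas Cox8c and Cox7b2, subunits of the same complex, fell. Dnajb3, a single-exon chaperone gene of testis also chosen afterwards, averaged 260 ± 12.2 in cKO and 268 ± 42.3 in Control (log2 fold change -0.03, limma adjusted p = 0.919).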
